A study of Mus musculus with 2 samples.

Results

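The keratins of hepatocytes and bile ducts were examined in mouse liver together with other genes of the biliary epithelium. A probe set, the group of oligonucleotides that reads 1 transcript on an Affymetrix array, was used when the platform's annotation paired it with exactly 1 gene. Of the 10 genes on the list (Epcam, Krt7, Krt8, Krt18, Krt19, Krt23, Sox9, Spp1, Tm4sf4 and Cldn4), 9 were found in this way among 18193 genes, through 14 probe sets. Spp1, which encodes osteopontin, was not analysed here.

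The mice were C57BL/6 males, wild type and 8 weeks old. In the renal ischaemia-reperfusion group both kidneys underwent warm ischaemia for 30 minutes and were reperfused, a model of acute kidney injury, and the other group had sham surgery. The liver pool of the first group is called the injured pool, after the kidney injury. Livers were collected 24 hours later. Each group was 1 pool of tissue from 3 mice on 1 array. Both values of every gene are therefore single measurements without replicates, no test was possible, and all differences describe these 2 pools.

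Keratins are the intermediate filament proteins of epithelial cells, and a filament needs a type I and a type II chain. Hepatocytes are known to build theirs from keratin 8 (type II) and keratin 18 (type I) alone, which give the cell mechanical strength and resistance to stress. Cholangiocytes, the cells that line bile ducts, contain these and also keratin 7 (type II) and keratin 19 (type I). In many liver injuries ducts proliferate and some hepatocytes take on biliary genes such as Sox9, a process known as the ductular reaction.

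In the renal ischaemia-reperfusion pool, both keratin genes of hepatocytes had higher signals, 4.52-fold for Krt8 by its brightest probe set and 4.53-fold for Krt18. The other Krt8 probe sets gave 3.35-fold and 2.26-fold. The keratins listed as biliary did not share a direction. Krt19 was brighter in the injured pool, Krt23 was brighter in the sham pool, and Krt7 was dim in both. Of the other biliary genes, Sox9 and Tm4sf4 had higher signals after kidney injury. Cldn4 had nearly equal signals, not far above the array medians. Epcam was brighter after kidney injury by 1 of its 2 probe sets, and the other was dim in both pools. Of 35 other bile duct genes listed, 20 were bright enough to count. Of these 20, 1 was higher by 2-fold or more and 2 were lower, beside 8.71% and 9.59% of all genes. Once signals under the array median were raised to it, none was higher and 2 were lower, beside 5.50% and 6.59%.

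The arrays had been scaled alike, with a median signal of 257.0 (sham) and 254.1 (renal ischaemia-reperfusion). Differences are given as log2 of the signal plus 16, injured pool minus sham pool, so that 1 stands for a 2-fold higher signal and -1 for a 2-fold lower one. A gene was counted when its brighter signal reached the median of its array, and was represented by its brightest such probe set. Between probe sets that read 1 gene, differences varied with an SD of 0.72 on this scale. All 18 bacterial hybridisation controls were brighter on the injured array, with a median log2 difference of 0.28. The hepatocyte genes Hnf4a, with a log2 difference of -0.06, Asgr1 (-0.45), Alb (0.73) and Cps1 (-1.12) were bright in both pools.

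Krt8 had 3 probe sets. The brightest, 1420647_a_at, gave 4126 after sham surgery and 18695 after kidney injury, a log2 difference of 2.18. The others, 1423691_x_at with 3945 and 13240 and 1435989_x_at with 2871 and 6508, differed by 1.74 and 1.18, and the suffix of both marks probes that can bind related transcripts. Every Krt8 probe set was thus brighter after kidney injury, by 2.26-fold to 4.52-fold. Krt18 was read by 1 probe set, 1448169_at, with signals of 3552 and 16156 and a log2 difference of 2.18. By the brightest Krt8 probe set, the 2 partner chains of the hepatocyte filament differed from each other by -0.01 in this measure, Krt8 minus Krt18. With the mean of the probe sets, Krt8 stood at 1.70 and Krt18 at 2.18.

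Krt8 and Krt18 are neighbours among the protein-coding genes of the RefSeq annotation, with no other such gene between them. The next genes on the side of Krt8, Krt78 and Krt79, had log2 differences of 0.62 and -0.09. The gene next to Krt18, Eif4b, a translation initiation factor, stood at -0.12. One place further lies Tns2, which encodes tensin 2 of focal adhesions, with signals of 202.4 and 765.7 and a difference of 1.84. The nearest neighbours of the pair on both sides were therefore not among the genes with a 2-fold difference.

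The 250 bases before the annotated start of 4 keratin genes are shown. Krt8 and Krt18 were higher in the injured pool, Krt23 differed in the other direction, and Krt7 was too dim in both pools to compare. They are RefSeq sequences of GRCm38.p6, written 5′ to 3′ on the strand of the gene, at chr15:102004343-102004592 (minus strand), chr15:102027966-102028215 (plus), chr11:99493121-99493370 (minus) and chr15:101412153-101412402 (plus). Of the 10 genes, 8 had an entry in the promoter table used, and Krt19 and Sox9 had none. Capitals mark matches on either strand to any of 5 motifs, the TATA box TATAAA, the GC box GGGCGG, the CCAAT box CCAAT, the AP-1 site TGANTCA and the STAT site TTCNNNGAA.
Krt8 promoter: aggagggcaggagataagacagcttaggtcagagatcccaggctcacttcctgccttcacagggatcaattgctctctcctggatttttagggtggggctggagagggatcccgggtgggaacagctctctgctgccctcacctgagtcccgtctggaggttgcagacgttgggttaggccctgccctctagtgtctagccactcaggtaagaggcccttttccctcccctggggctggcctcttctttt
Krt18 promoter: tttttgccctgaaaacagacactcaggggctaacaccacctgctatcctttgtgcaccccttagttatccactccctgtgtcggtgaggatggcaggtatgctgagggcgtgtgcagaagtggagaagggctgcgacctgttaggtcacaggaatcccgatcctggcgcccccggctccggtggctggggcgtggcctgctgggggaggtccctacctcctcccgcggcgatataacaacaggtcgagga
Krt23 promoter: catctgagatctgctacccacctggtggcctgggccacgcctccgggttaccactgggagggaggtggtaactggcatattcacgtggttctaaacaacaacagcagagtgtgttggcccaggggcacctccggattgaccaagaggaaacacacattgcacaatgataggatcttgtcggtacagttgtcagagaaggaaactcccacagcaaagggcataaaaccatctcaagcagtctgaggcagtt
Krt7 promoter: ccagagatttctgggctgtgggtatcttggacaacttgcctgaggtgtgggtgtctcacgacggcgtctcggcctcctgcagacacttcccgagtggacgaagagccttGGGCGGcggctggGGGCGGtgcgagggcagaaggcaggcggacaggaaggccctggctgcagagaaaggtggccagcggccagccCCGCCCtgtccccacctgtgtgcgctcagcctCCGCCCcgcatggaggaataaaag
Krt7 held 4 matches to the GC box, starting 141, 128, 56 and 24 bases before the start, and no match to the other motifs. Krt8, Krt18 and Krt23 held no match to any of the 5, which says only that these letters are not in this window. Among 32851 promoters of the same length, 32.7% held the GC box, 12.4% the TATA box, 33.8% the CCAAT box, 6.75% the AP-1 site and 7.02% the STAT site. Of the genes outside the keratins, Cldn4 held 2 matches to the AP-1 site and 1 to the GC box. Epcam held 1 GC box and Tm4sf4 1 CCAAT box. No base in the promoters of Cldn4, Epcam, Krt7 and Tm4sf4 lay in 2 motifs.

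Krt19, the keratin most used to mark bile ducts, read 72.4 after sham surgery and 511.4 after kidney injury (1417156_at). Its log2 difference was 2.58. The sham signal was under the array median, so the difference is at least 1.93-fold when set against that median. Krt23, a type I keratin whose transcript is known from ductular reactions, went the other way, with 367.1 after sham surgery and 70.3 after kidney injury (1418213_at). Its log2 difference was -2.15, and the signal was at least 1.42-fold lower against the median of the injured array. Krt7, the type II partner in ducts, had signals of 81.3 and 32.0 (1423952_a_at), under the median of either array, and no fold is given.

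**Figure D1:**
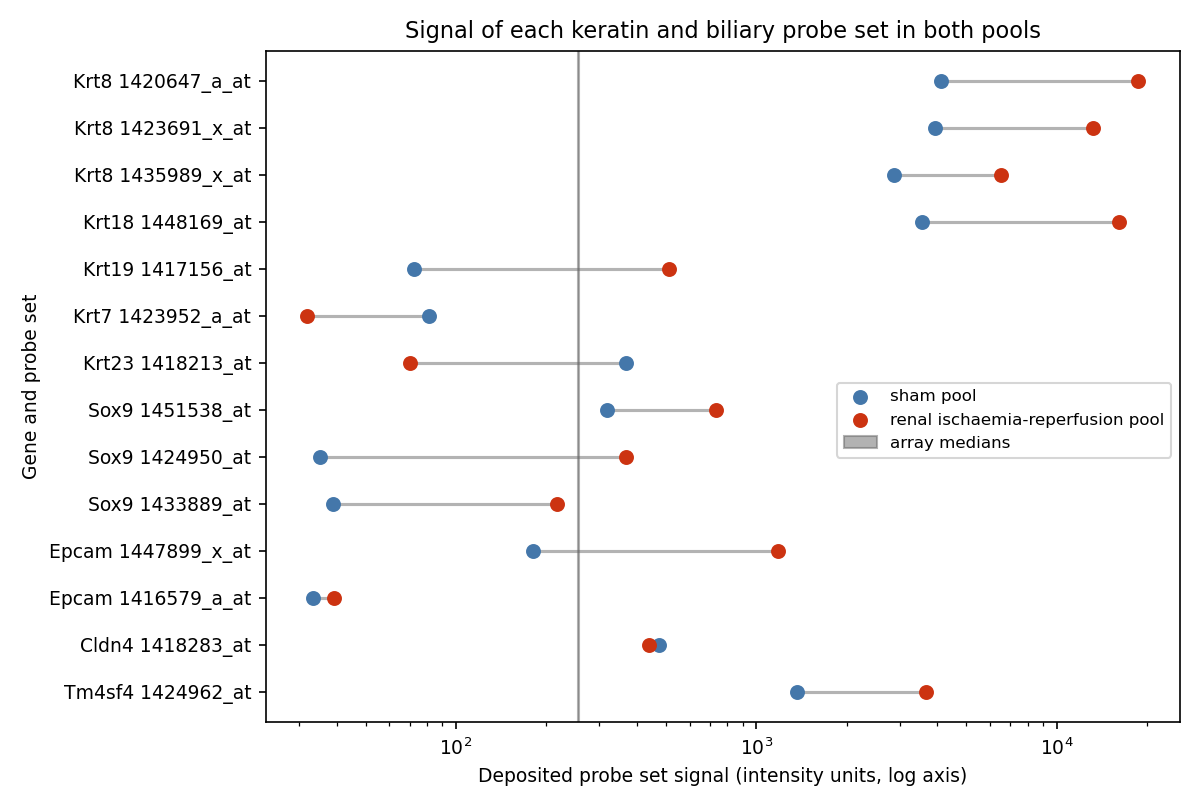
Deposited signal of each of the 14 probe sets after sham surgery (blue) and after renal ischaemia-reperfusion (red), on a log axis, with the array medians of 257.0 and 254.1 as the grey line. All 4 probe sets of Krt8 and Krt18 lie right of the medians in both pools and are brighter in the injured pool, whereas Krt19 and Krt23 cross the medians in opposite directions.

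Hepatocyte keratins were set against biliary ones by their differences and not by their levels, because signals of different probe sets are not on a common scale. Krt23 was counted as biliary, although the data do not show which cells gave its signal. The median log2 difference was 2.18 over Krt8 and Krt18. It was 0.21 over Krt19 and Krt23, the 2 biliary keratins that passed the filter, and this small value lies between 2 large ones of opposite sign and turns to -0.07 with the hybridisation controls as the reference. Each of those genes passed through 1 pool only, so each had to differ. The size of both differences is therefore uncertain. With dim signals set to the median of their array, Krt19 stood at 0.95 and Krt23 at -0.50, both short of 2-fold. The array thus placed both hepatocyte keratins well above the median in both pools and no biliary keratin above it in both.

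A total of 43 further keratin genes, most of them of skin and hair, were on the array, and 22 of them passed the filter. By the brightest probe set of each, none of these was higher by 2-fold in the injured pool, beside 8.71% of all genes. By the same measure 4 were lower by that much, beside 9.59% of all genes, and the median was -0.42. Once dim signals were raised, 1 was lower, beside 6.59% of all genes. Their differences ran from -1.72 for Krt84, a hair keratin, to 0.62 for Krt78. The lower 4 were Krt84, Krt76, Krt6b and Krt1, all under the array median in the injured pool. Krt4 and Krt6a each had a dimmer probe set that went against their brightest one (-0.43 and -0.41). For Krt4, 1418735_at had signals of 91.1 and 406.5 (1.98), at least 1.55-fold higher against the sham median. For Krt6a, 1422783_a_at had 130.1 and 264.0 (0.94). In all, 19 of the 22 had a lower signal in the injured pool, the direction of Krt23, as had 6647 of all 13117 genes. As 16 of these mostly epidermal genes reached the median on both arrays, reaching it was not taken to show that a transcript was present.

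**Figure D2:**
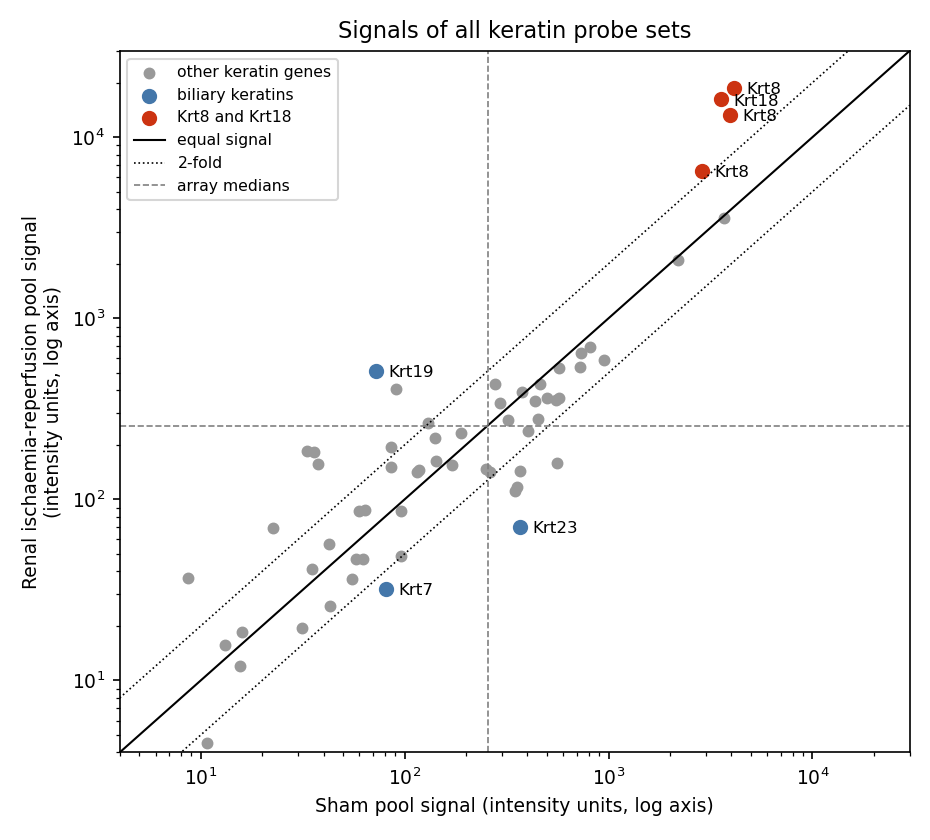
Signal of every keratin probe set after sham surgery (x axis) and after renal ischaemia-reperfusion (y axis), both on log axes, with the line of equal signal, 2-fold lines (dotted) and array medians (dashed). The probe sets of Krt8 and Krt18 (red) stand above the upper 2-fold line at the bright end, Krt19 stands above it and Krt23 below the lower one, and other keratins (grey) that reach the median on both arrays lie between the lines.

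Sox9, a transcription factor that specifies and maintains biliary cells, had 3 probe sets, each with the larger signal in the injured pool. The brightest, 1451538_at, had signals of 318.8 and 731.2, a log2 difference of 1.16. With the hybridisation controls as the reference it was 0.87, short of 2-fold. The other probe sets were dim in the sham pool, 1424950_at with 35.3 and 367.5 and 1433889_at with 39.0 and 217.6. The first of these was at least 1.40-fold higher, and the second was under the median in both pools. The size of the Sox9 difference thus rests on 1 probe set.

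Epcam, a cell adhesion protein of simple epithelia and of biliary cells within the liver, had 2 probe sets that gave different results. One, 1447899_x_at, had signals of 180.6 and 1179, at least 4.38-fold higher in the injured pool against the sham median, and can bind related transcripts. The other, 1416579_a_at, had signals of 33.5 and 39.3, dim in both pools. The value of Epcam thus rests on 1 probe set that is uncertain. Tm4sf4, a membrane protein of the tetraspanin-like family found in liver and gut epithelium, had signals of 1367 and 3675 by its single probe set (1424962_at), 2.67-fold higher. Cldn4, a tight junction claudin of ducts, had signals of 473.5 and 440.2 (1418283_at), a log2 difference of -0.10. These were close to the signals of the keratin Krt79 (460.5 and 431.1), so they do not show that the transcript was present.

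Of the 10 genes on the list, 6 were higher by 2-fold or more in the injured pool (Epcam, Krt8, Krt18, Krt19, Sox9 and Tm4sf4) and 1 was lower (Krt23), Cldn4 was within 2-fold, Krt7 was under the median in both pools and Spp1 was not analysed. Of all 13117 genes that passed the filter, 8.71% had a signal higher by 2-fold or more and 9.59% a lower one. Epcam and Krt19 were under the median in the sham pool and Krt23 in the injured pool, so these 3 passed only through the pool where they were bright. The other 5 genes reached the median on both arrays, and 4 of them were at least 2-fold higher, beside 5.14% of the 10923 genes that did so (6.17% lower). Once dim signals were raised to the median, 5 of the 10 were higher by 2-fold and none lower, beside 5.50% and 6.59% of all genes. Only 1.56% of genes had a higher difference than Krt18, 4.70% a higher one than Tm4sf4 and 6.92% a higher one than Sox9.

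**Figure D3:**
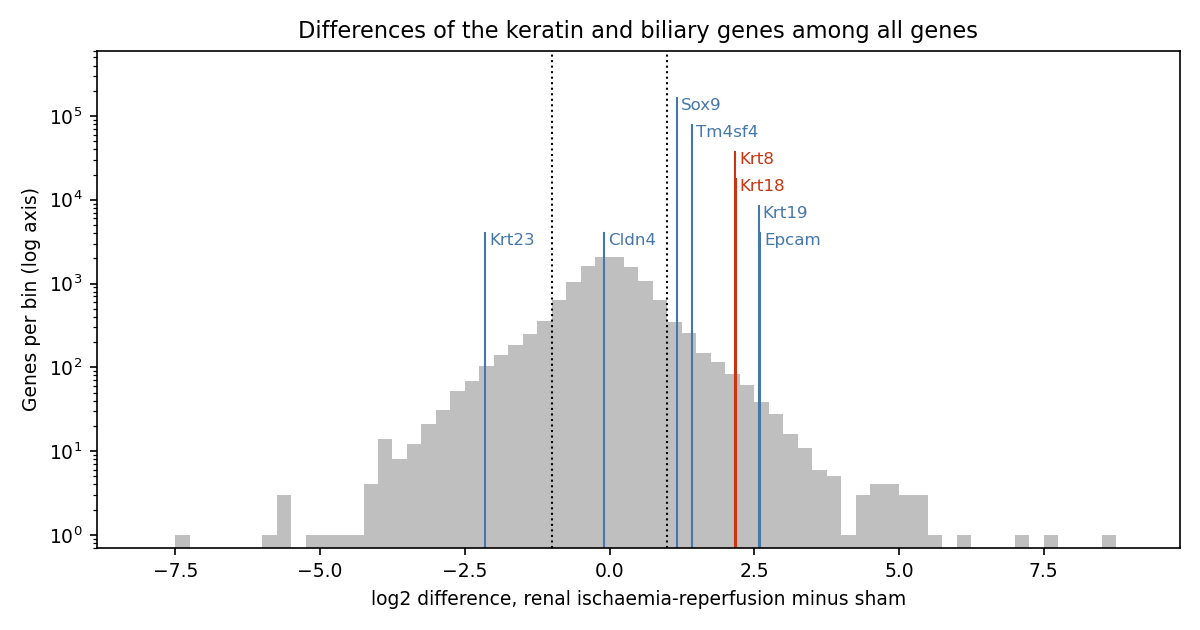
Number of genes by log2 difference, renal ischaemia-reperfusion minus sham, in bins of 0.25 for all 13117 genes (grey, log axis), with dotted lines at 2-fold. Vertical lines mark the 8 genes that passed the filter, Krt8 and Krt18 in red at 2.18 and the biliary genes in blue from -2.15 (Krt23) to 2.60 (Epcam).

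Further bile duct genes differed in both directions. Of 35 listed, 20 passed the filter, with 1 gene higher by 2-fold or more and 2 lower, beside 8.71% and 9.59% of all genes, and their median difference was 0.21 beside -0.01 over all genes. Once dim signals were raised, none was higher and 2 were lower, beside 5.50% and 6.59% of all genes, and the median was 0.08. The highest was Jag1, a Notch ligand that guides duct formation, with signals of 34.9 and 264.8, at least 1.03-fold higher against the sham median. Hes1, a Notch target, had signals of 422.2 and 734.9 (0.78). Car2, the carbonic anhydrase of duct cells, was at least 2.43-fold lower (640.1 and 112.9), and the sodium pump subunit Atp1b1 stood at -1.25, with all 4 of its probe sets lower.

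Among proteins that bind, anchor or crosslink keratin filaments, 23 of 25 listed genes passed the filter, and 5 were higher and 3 lower by 2-fold or more, beside 8.71% and 9.59% of all genes. Their median was 0.29. Tgm2, transglutaminase 2, which crosslinks keratins in injured hepatocytes, led them with a difference of 3.64. Plec, encoding the cytolinker plectin, had signals of 1934 and 4329 (1.16), and Eppk1, epiplakin, had 980 and 2260 (1.19). Evpl, envoplakin, was at least 2.54-fold higher, and Pkp2, plakophilin 2 of desmosomes, stood at 1.05 with all 3 probe sets higher. The lower genes were also of desmosomes and related junctions. Dsg2, desmoglein 2, had signals of 4130 and 1681 (-1.29), with all 4 probe sets lower, Dsc2, desmocollin 2, stood at -1.16 and Pkp4 at -1.56. Other plakins of the list were within 2-fold, with Dsp, desmoplakin, at 0.37 and Ppl, periplakin, at 0.73.

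A list of liver progenitor genes and YAP targets, known to come on in ductular reactions, had 20 of 23 genes past the filter, and 5 were higher by 2-fold or more and none lower, beside 8.71% and 9.59% of all genes. Once dim signals were raised, 3 were higher, beside 5.50%. Their median was 0.26. Tnfrsf12a, the receptor of the cytokine TWEAK, which drives progenitor growth, had signals of 75.2 and 2805, at least 10.3-fold higher by a bound against the sham median. Tead1 had signals of 772.4 and 2032 (1.38), although 1 of its 2 probe sets past the filter was lower, and Cd9 had 469.0 and 1183 (1.31). Against the sham median, Lgals3 was at least 1.97-fold higher and Ncam1 at least 1.22-fold higher. The YAP targets Ccn1 (0.58), Ccn2 (0.81) and Ankrd1 (-0.45) were within 2-fold, and Dlk1 (-0.80) and Amotl2 (-0.73) were the lowest.

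Keratins and biliary genes are also expressed outside the liver's own ducts, so markers of other cells were read beside them. Many pancreatic acinar markers were brighter in the injured pool, although not all. Of 33 listed, 25 passed the filter, 14 were higher by 2-fold or more, beside 8.71% of all genes, and none lower, and the median was 1.15. Once dim signals were raised, 8 were higher, beside 5.50% of all genes, and the median was 0.65. Their summed signal was 11437.5 (sham) and 23569.4 (injured), 12 were under the median in the sham pool and so passed through the injured pool alone, and none had a signal of 0. Cpa1, carboxypeptidase A1, was at least 3.42-fold higher and Ctrb1, chymotrypsinogen B1, at least 4.22-fold higher. The acinar factors Ptf1a (-0.23) and Rbpjl (-0.15) and the kallikrein Klk1 (-0.06) were slightly lower, while the acinar factor Bhlha15 was higher (0.42). Klk1 and Bhlha15 each had 1 probe set higher and 1 lower. Pancreas contains duct cells that express Krt8, Krt18, Krt19, Sox9 and Epcam, and the part of such tissue in the differences of these genes was not tested.

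Mesothelial cells, which cover the liver and contain the same keratins, were marked by 8 genes. Of these, 3 passed the filter, with differences from -0.22 (Muc16) to -0.15 (Upk1b) and a summed signal of 1393.3 (sham) and 1218.0 (injured). Upk1b had 1 probe set higher and 1 lower. None of the 3 had a signal above 515.5, a level that epidermal keratins also reached, so they do not show that mesothelial transcripts were present. Hepatocyte markers had a median of 0.19 over 17 genes, from Cps1 (-1.12) to Fgb (1.27). By their brightest probe sets, Krt8 and Krt18 had larger differences than each of them, although Krt8 probe set 1435989_x_at (1.18) was below Fgb. Macrophage markers had a median of -0.37 over 13 genes, stellate and fibroblast markers -0.42 over 13, and endothelial markers -0.40 over 10. Neutrophil markers had a median of 0.22 over 11 genes, with S100a8 at least 5.21-fold higher by a probe set that can bind related transcripts. In whole tissue, a change in the number of cells of a type cannot be told apart from a change in RNA per cell.

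**Figure D4:**
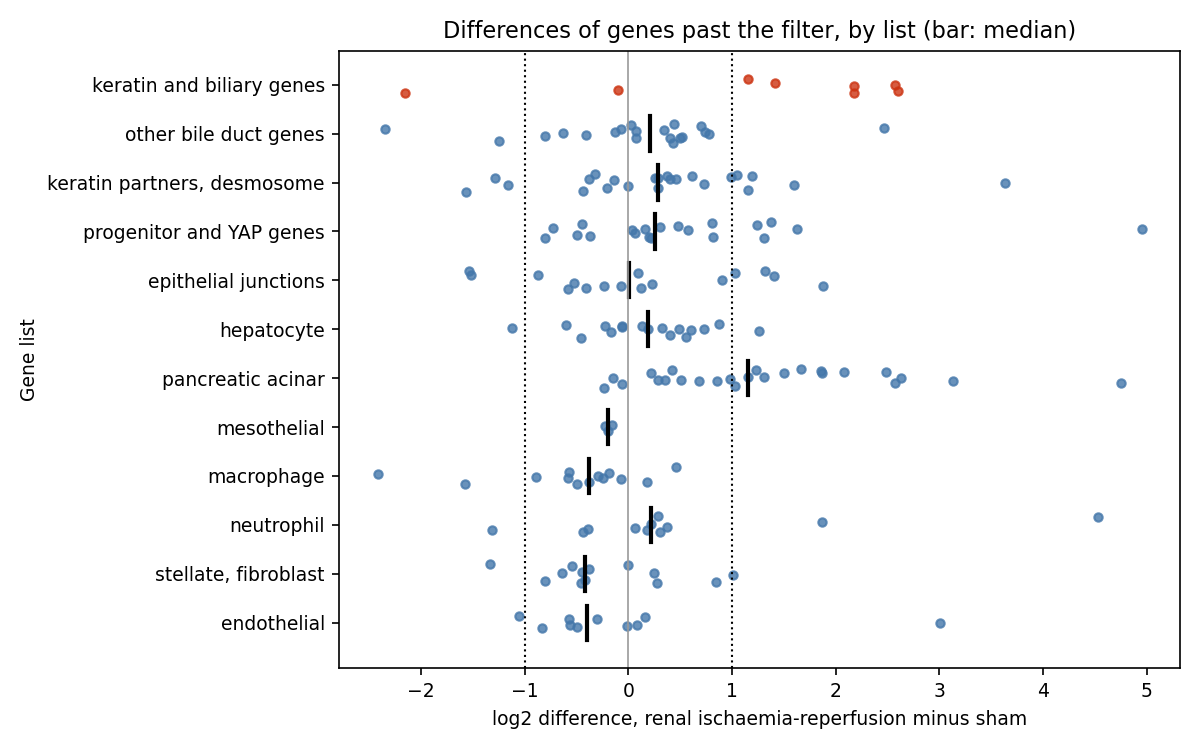
The log2 difference, renal ischaemia-reperfusion minus sham, of each gene that passed the filter (points), by list, with the list's median as a black bar except in the top row and dotted lines at 2-fold. Pancreatic acinar markers have a median of 1.15 (0.65 with dim signals raised), while the medians of the other lists drawn lie between -0.42 (stellate and fibroblast) and 0.29 (keratin partners and desmosome).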

How the data were processed

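Pooled liver RNA was isolated with Trizol and labelled with biotin for Affymetrix arrays, per the labels' protocols. The authors deposited 1 linear intensity for each probe set. The summarising software, background correction and filters behind it are not given in the sources. Each array's deposited intensity, with 2% trimmed from either end, averaged 500.0, so the arrays share a scale.

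Of 45037 probe sets that are not controls, 34945 had 1 gene in the platform annotation, which can be old, 932 several and 9160 none. Symbols were updated through the Entrez ID for 34741. Values were analysed as log2(intensity + 16), which understates differences of dim probe sets, with Python 3.11.15, pandas 2.3.3 and statsmodels 0.14.6. The filter kept 13117 genes, and 10923 of them reached the median on both arrays. A lower bound on a fold compares the brighter signal with the other array's median. With 1 array per group no test was run, precision is limited by the number of arrays, and genes were counted at 2-fold.

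All 10 genes were named whatever their values, with up to 2 highest and 2 lowest genes of each further list, Alb, Hnf4a, Cps1 and Asgr1, and other keratins at or above an array median. Other genes of the lists, and the neighbours of Krt8 and Krt18, were named after their values were seen. The genes and lists were chosen with earlier results of these data known. Alternatives covered scaling, pseudocount, filter, probe set choice and threshold. The steps were tested on simulated data.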

Additional observations from a re-analysis of the deposited data

How the results depend on the processing

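No paired analysis was possible because each group is 1 pool on 1 array. Under the alternatives that gave a value, Krt18 ranged from 1.90 to 2.19, Krt8 from 1.18 to 2.19, Epcam from 2.13 to 2.70 and Tm4sf4 from 1.13 to 1.43, all at least 2-fold higher. Epcam gave no value when both signals had to reach the median. Neither Epcam nor Krt8 gave a value without the probe sets whose suffix is _x_at, _s_at or _a_at. Sox9 ranged from 0.87 to 2.03, Krt19 from 0.95 to 2.80 and Krt23 from -2.43 to -0.50, each with 1 alternative short of 2-fold, and Cldn4 from -0.39 to -0.08. The number of genes on the list at least 2-fold lower was 2 without a filter, with Krt7 added, and 0 with a filter at the 75th percentile, with both signals required to reach the median, or with dim signals raised. Without a filter the biliary keratin median was -1.02, which is the value of Krt7 itself, dim on both arrays, and the hepatocyte minus biliary difference 3.20, instead of 0.21 and 1.96. All 4 values rest on signals under the array median, so none measures the size of the contrast. No biliary keratin passed either of those filters, so they gave no biliary value. Over all genes, the counts at least 2-fold higher and lower, 1143 and 1258, became 756 and 2016 with hybridisation controls as the reference, 682 and 797 at the 75th percentile, and 563 and 676 with both signals at the median or higher. They were 2449 and 2536 at 1.5-fold and 472 and 589 at 3-fold. With dim signals raised, 721 genes were higher. The filters and thresholds test fewer or more genes by construction. By construction too, the hybridisation reference lowers every log2 difference by 0.28, and raising dim signals brings them nearer to the brighter ones. The cause of any other shift was not tested. Cldn4 gave no value with a filter at the 75th percentile. Signals near or under the array medians limit Cldn4, Epcam, Krt7, Krt19, Krt23 and Sox9.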

Other observations

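Epithelial junction genes, fixed as a list beside the keratins, differed in both directions. Of 22 listed, 16 passed the filter, and 4 were higher by 2-fold or more in the injured pool and 2 lower, beside 8.71% and 9.59% of all genes, around a median difference of 0.01 on the log2 scale. Cldn2, a pore-forming claudin of hepatocytes and ducts, read 888.9 after sham surgery and 3314 after kidney injury (1.88), with both probe sets higher. Cldn14 had 360.3 and 978.8 (1.40). The gap junction gene Gja1, connexin 43, had 279.7 and 720.2 (1.32), with all 4 probe sets higher, and Gjb2, connexin 26, had 7281 and 14850 (1.03). Gjb1, connexin 32, the main connexin of hepatocytes, had 9360 and 7935 (-0.24). Cdh2, N-cadherin, had 2140 and 726.1 (-1.54), and Ocln, occludin, had 646.7 and 215.7, at least 2.45-fold lower, whereas Cdh1, E-cadherin, stood at -0.07.

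Lyve1, a hyaluronan receptor of sinusoidal and lymphatic endothelium, had signals of 326.8 and 2740.5 (3.01), with both probe sets higher, while the other endothelial markers that passed the filter lay between -1.05 (Clec4g) and 0.16 (Cdh5). C1qa, a complement subunit of macrophages, was at least 3.61-fold lower (958.5 and 166.5), whereas its partner chains C1qb (-0.18) and C1qc (-0.07) differed little. Of 8 intestinal markers 5 passed the filter, with a median of -0.48, led by Tff3 (1.49), and of 8 islet markers 3 passed, with a median of -0.58, led by Sst, at least 1.94-fold higher.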
